A study of Mus musculus with 27 samples.

Results

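The transcripts of 6 metabotropic glutamate receptors, Grm2, Grm3, Grm4, Grm5, Grm7 and Grm8, were followed in mouse cortex after a transient stroke. They were taken by gene symbol from a table of read counts per gene, as 6 of its 22340 rows, and all 6 were among the 18087 genes that passed a filter on low counts. The animals were wildtype C57BL6 mice of 7 to 8 weeks. In the stroke groups a nylon filament blocked the right middle cerebral artery, with the common carotid artery tied, for 35 min. Cortex was then taken after 3, 6, 12 or 24 h of reperfusion from the ipsilateral (injured) or the contralateral hemisphere. Sham animals were anesthetized and their arteries exposed without the filament. The labels give no reperfusion time and no hemisphere for the sham libraries, and do not say whether an ipsilateral and a contralateral library came from 1 animal. Each of the 9 groups had 3 libraries, and a replicate number stands for a distinct day of surgery, so the p-values measure the spread between days and animals together.

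Metabotropic glutamate receptors are G protein-coupled receptors that sense glutamate over slower times than the ion channel receptors do. Grm5 belongs to group I, which couples to Gq and phospholipase C and lies mostly on the postsynaptic side, around the edge of the synapse. Grm2 and Grm3 form group II and Grm4, Grm7 and Grm8 belong to group III. Both of these groups couple to Gi and Go, lower cyclic AMP and, on nerve terminals, reduce transmitter release. Grm3 is also a receptor of astrocytes. In stroke, where glutamate floods the tissue, these receptors are of interest because some of them can add to excitotoxicity and others dampen release.

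Library totals ran from 26506000 to 48830900 counts. The 2 mitochondrial ribosomal RNAs took 24.4% to 40.4% of them, with the highest share in ipsilateral replicate 1 at 24 h. Contralateral replicate 1 at 3 h stood apart in how its counts varied with the GC content of genes, where its log2 level spanned 1.09 between gene classes of different GC; the next library spanned 0.3. Results that rest on these 2 libraries are also given without them. Expression is printed in CPM, that is, counts divided by the normalized library size, and a gene was called when its adjusted p in edgeR's quasi-likelihood test was under 0.05 over all 18087 genes tested. The markers of neurons, of cortical excitatory neurons and of the other cell types examined were detected in every group, with none at 0.

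The 6 genes differ greatly in extent (mm10 coordinates, GENCODE M21). Grm2 lies on chr9:106643095-106656082 on the minus strand and spans 13 kb. Grm3 lies on chr5:9485541-9725170 on the minus strand and spans 239.6 kb. Grm4 occupies chr17:27422387-27521403, minus strand, 99.0 kb. Grm5 occupies chr7:87584168-88134907, plus strand, 550.7 kb. On chromosome 6, Grm7 spans 921.6 kb at 110645581-111567230 on the plus strand and Grm8 spans 860.1 kb at 27275119-28135178 on the minus strand. All counts refer to whole genes, so isoforms and single exons were not separated.

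Promoters from RefSeq (GRCm38.p6) matched 4 of the 6 genes, Grm2, Grm3, Grm7 and Grm8. The 250 bases before the start of Grm2 (chr9:106656110-106656359, minus strand) and of Grm3 (chr5:9725353-9725602, minus strand) are shown because these were the genes that passed the test between hemispheres at a single time. They are written 5′ to 3′ along the gene, with the SP1 box GGGCGG in capitals.
Grm2: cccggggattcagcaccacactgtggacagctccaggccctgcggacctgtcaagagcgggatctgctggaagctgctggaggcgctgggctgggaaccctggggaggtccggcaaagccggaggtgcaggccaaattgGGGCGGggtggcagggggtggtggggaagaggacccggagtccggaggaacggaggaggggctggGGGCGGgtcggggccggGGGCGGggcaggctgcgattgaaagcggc
Grm3: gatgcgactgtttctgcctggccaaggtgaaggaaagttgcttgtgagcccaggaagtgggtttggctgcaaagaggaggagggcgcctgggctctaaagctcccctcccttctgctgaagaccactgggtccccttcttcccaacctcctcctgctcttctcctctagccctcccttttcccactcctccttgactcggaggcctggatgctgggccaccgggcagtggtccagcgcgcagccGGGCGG
The Grm2 window held 3 SP1 boxes and a GC content of 71.2%, and the Grm3 window held 1 box and 62.4%, against a median of 52.4% GC over 32851 promoters. An SP1 box on either strand stood in 32.74% of those promoters. Neither window held the cyclic AMP response element TGACGTCA (1.55% of promoters), its core TGACG (17.77%), which lies inside that element, the E-box CACGTG (6.02%) or the EGR site GCGTGGGCG (0.54%). These matches describe letters only.

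Grm3 and Grm5 were the most abundant of the 6 per unit of length. In sham cortex, with CPM divided by the length in kb of the merged exons, Grm3 stood at 50.7 ± 4.2 (SD, n = 3) CPM per kb, Grm5 at 35.5 ± 2.42 and Grm7 at 15.1 ± 1.47. The others were lower, Grm2 at 7.05 ± 0.79, Grm4 at 4.71 ± 0.274 and Grm8 at 2.56 ± 0.277 CPM per kb. By means, the order of Grm3 and Grm5 at the top and Grm8 at the bottom was also found with the longest transcript as the length. The neighbours were closer there, with Grm3 at 50.7 ± 4.2 beside Grm5 at 45.2 ± 3.08 CPM per kb. Grm4 stood at 6.11 ± 0.356 beside Grm8 at 5.27 ± 0.571 CPM per kb, so the distances depend on the length used. No library was thin for any of them: the lowest count was 520 reads, for Grm4, and the highest 20463, for Grm5.

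**Figure D1:**
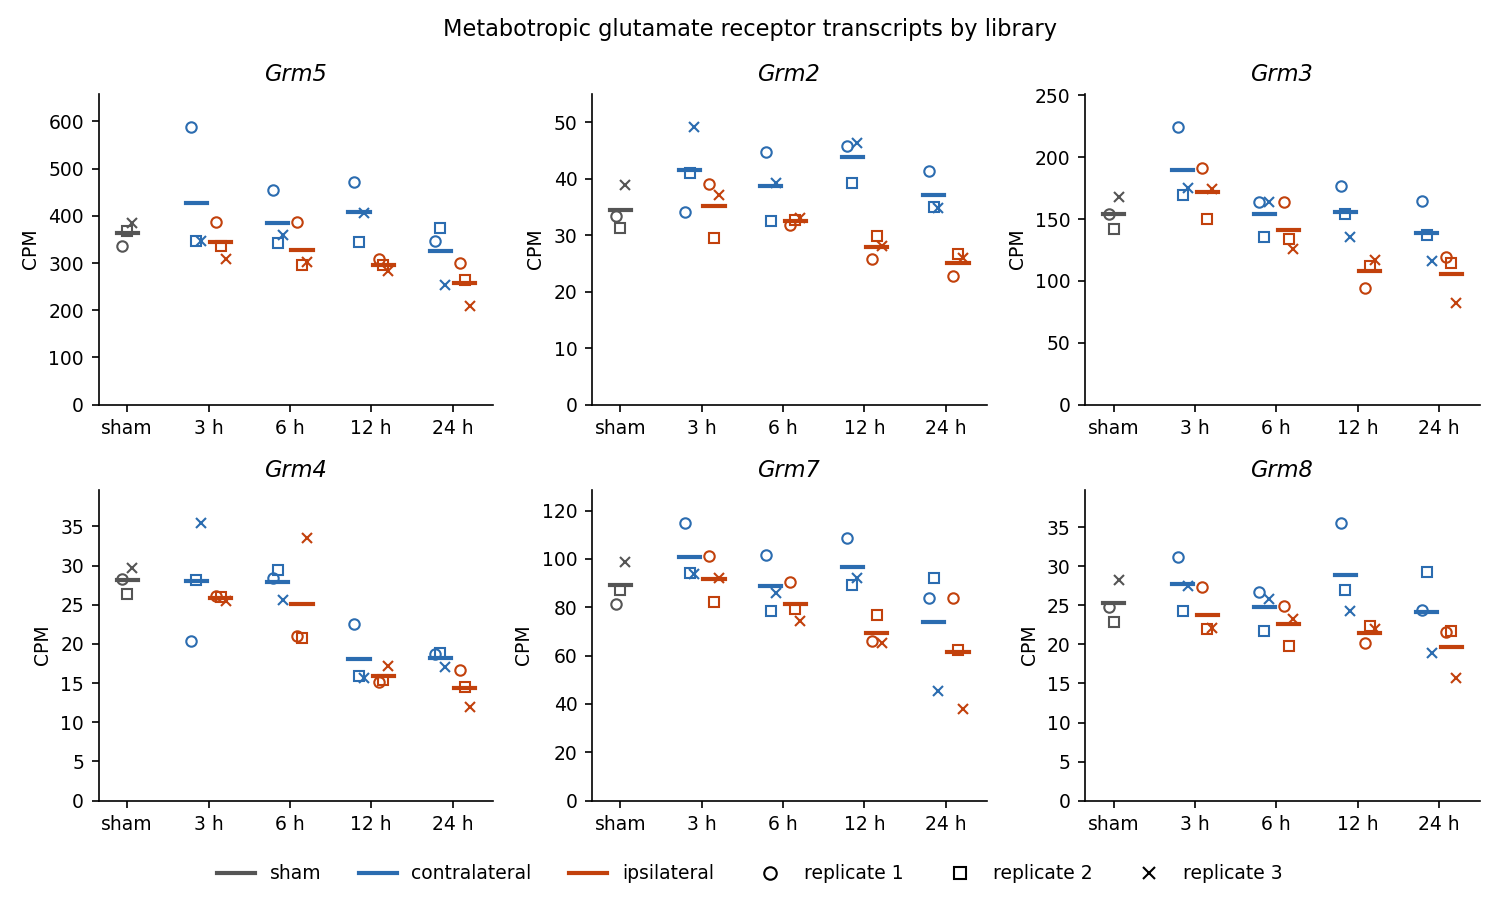
Level of each receptor in CPM (y axis, starting at 0) in all 27 libraries by group (x axis). Symbols mark replicates 1 to 3, which are days of surgery, bars mark group means, and colours mark sham, contralateral and ipsilateral cortex. The ipsilateral 12 h and 24 h groups have the lowest means for every receptor, and Grm4 is low in both hemispheres at those times.

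The first question was whether the injured hemisphere differed from the uninjured one at the same time. All 6 receptors had lower fitted levels in the ipsilateral cortex at all 4 times, and the calls came at 12 and 24 h. At 12 h 2 of 6 fell, Grm2 and Grm3, where 4.3% of all genes tested were called lower. At 24 h 1 of 6 fell, Grm2, against 9.36% of all genes. At 3 h and 6 h edgeR called none of the 6, and none had an unadjusted p under 0.05. DESeq2 called none of them at those times either. At those times 0.0166% and 2.14% of all genes were called lower. The median log2 difference of the 6 was -0.18 (3 h), -0.14 (6 h), -0.47 (12 h) and -0.34 (24 h), beside medians over all genes between -0.02 and 0.03. In bulk tissue, fewer cells of a type and less RNA per cell cannot be told apart.

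Grm5, the group I receptor, differed by an amount that passed the test over the 4 times together but at no single time. At 12 h it stood at 473, 345 and 406 CPM in contralateral replicates 1, 2 and 3 and at 309, 297 and 284 CPM in the ipsilateral ones. All 3 ipsilateral libraries were below all 3 contralateral ones, and the log2 difference was -0.46 ± 0.179 (SE), adjusted p = 0.0924. With the day of surgery as a replicate block, the adjusted p was 0.0290. At 24 h the contralateral libraries read 347, 374 and 254 CPM and the ipsilateral ones 299.9, 263 and 209 CPM. These groups overlapped, since contralateral replicate 3 was lower than 2 of the ipsilateral libraries, and the log2 difference was -0.34 ± 0.179 (adjusted p = 0.195). Without ipsilateral replicate 1 at 24 h and contralateral replicate 1 at 3 h, the 24 h adjusted p was 0.0411. At 3 h the contralateral value of 589 CPM in replicate 1, the library that stood apart in GC, was far above the 348 and 347 CPM of the others. The 3 h log2 difference was -0.31 with that library and -0.01 without it. Leaving it out also moved the 3 h differences of Grm2 to -0.35, of Grm3 to 0.00089, of Grm4 to -0.29, of Grm7 to -0.03 and of Grm8 to -0.12, none of them called.

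Grm2, a presynaptic group II receptor, passed the test between hemispheres at both late times. At 12 h the contralateral libraries held 45.8, 39.3 and 46.2 CPM and the ipsilateral ones 25.7, 29.9 and 28.1 CPM. The groups were far apart, and Grm2 was 36.2% lower in the injured cortex (log2 difference -0.65 ± 0.137, adjusted p = 0.00212). Leaving out replicate 3 from every group brought the adjusted p at 12 h to 0.0610. At 24 h the values were 41.4, 34.9 and 34.7 CPM against 22.7, 26.6 and 25.996 CPM, again with no overlap. Grm2 was 32.1% lower at 24 h (log2 difference -0.56 ± 0.137, adjusted p = 0.00509), and this call was kept under each of the 18 alternatives run. At 3 h (34.1, 41.1 and 49.2 CPM against 39.0, 29.5 and 37.1) and 6 h (44.7, 32.5 and 39.2 CPM against 31.7, 32.8 and 32.9) the groups overlapped. The log2 differences at those times were -0.23 (adjusted p = 0.555) and -0.26 (adjusted p = 0.272).

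Grm3, the group II receptor that astrocytes also carry, passed the test at 12 h. It stood at 177, 154 and 135 CPM in the contralateral and at 94.0, 112 and 117 CPM in the ipsilateral libraries. The ipsilateral values were all lower, by 30.7% in the fit (log2 difference -0.53 ± 0.152, adjusted p = 0.0205). That call rested on few libraries. The adjusted p was 0.101 without contralateral replicate 1, 0.139 without ipsilateral replicate 1, 0.173 without replicate 1 in every group and 0.15 without replicate 2 in every group. At 24 h contralateral values of 164, 137 and 116 CPM faced ipsilateral values of 119.7, 114 and 82.3 CPM. Ipsilateral replicate 1 lay above contralateral replicate 3, and the log2 difference of -0.40 ± 0.151 had an adjusted p of 0.0624. With the replicate block the adjusted p was 0.0335, and without the 2 libraries that stood apart it was 0.0236.

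The group III receptors, which act on nerve terminals, were lower in the fit but none passed the test at a single time. With the hemispheres paired within each day and time, an alternative chosen after seeing the data, Grm7 and Grm8 passed at 12 h (adjusted p = 0.0109 and 0.0289). Grm8 at 12 h stood at 35.6, 26.99 and 24.3 CPM on the contralateral side and at 20.2, 22.4 and 21.9 CPM on the ipsilateral side. The groups did not overlap, with contralateral replicate 1 well above the others, and the log2 difference was -0.43 ± 0.159 (adjusted p = 0.0758). Grm7 at 12 h stood at 108, 89.1 and 92.1 CPM against 66.1, 76.6 and 65.1 CPM. It too did not overlap, with a log2 difference of -0.48 ± 0.216 (adjusted p = 0.153). At 24 h Grm7 spread widely between days, at 83.8, 92.3 and 45.4 CPM contralateral and 83.8, 62.3 and 37.9 CPM ipsilateral. Both libraries of replicate 3 were the lowest of their groups, and the log2 difference was -0.27 ± 0.216 (adjusted p = 0.414). Grm4 at 12 h stood at 22.6, 16.0 and 15.6 CPM contralateral and 15.1, 15.4 and 17.2 CPM ipsilateral, and the groups overlapped. Its log2 difference was -0.18 (95% interval -0.54 to 0.18, adjusted p = 0.571). At 24 h its 18.8, 18.8 and 17.1 CPM lay above the ipsilateral 16.6, 14.5 and 12.0 CPM, with a log2 difference of -0.34 ± 0.176 (adjusted p = 0.174).

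Counted by overlap, 5 of 6 receptors (all but Grm4) had every ipsilateral library below every contralateral one at 12 h, where 15.7% of all genes did. At 24 h these were 2 of 6, Grm2 and Grm4, against 17.6% of all genes.

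Averaged over the 4 times in the same model, 4 of 6 receptors fell in the injured hemisphere, where 15.3% of all genes tested were called lower. Grm2 differed by -0.42 ± 0.0683 on the log2 scale (25.5% lower, adjusted p = 2.37e-05). Grm5 differed by -0.34 ± 0.0893 (20.8% lower, adjusted p = 0.00476) and Grm3 by -0.30 ± 0.0756 (18.8% lower, adjusted p = 0.00288). Grm8 differed by -0.27 ± 0.0797 (16.98% lower, adjusted p = 0.0102), and its adjusted p was 0.0585 without replicate 1 and 0.0712 without replicate 2. Grm7 (-0.25, adjusted p = 0.0747) passed with the replicate block, at 0.0402. Grm4 was at -0.20 (adjusted p = 0.0835). Without the 2 libraries that stood apart, all 6 passed, with Grm4 at an adjusted p of 0.0081 and Grm7 at 0.0349. The 15.3% of all genes belongs to the fit of all 27 libraries. It is not the background of this count, for which no share of all genes is given.

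**Figure D2:**
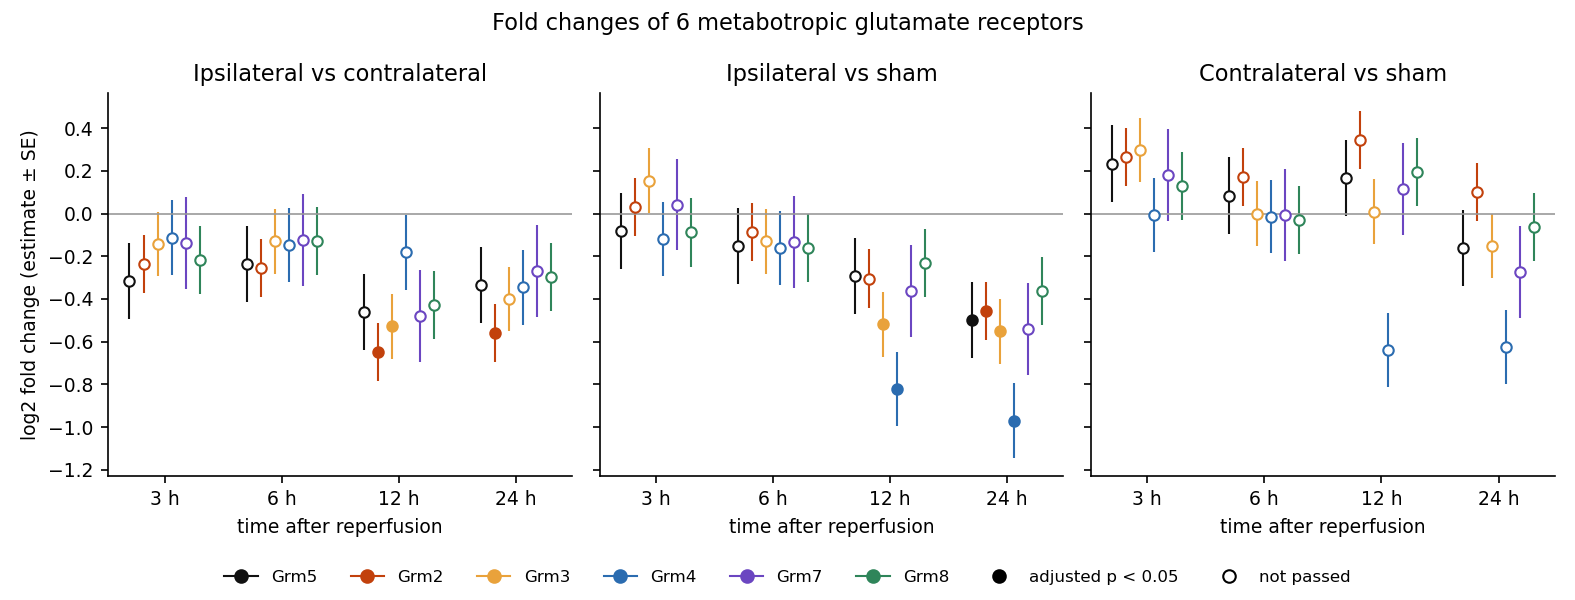
Log2 fold change with its SE (y axis) of the 6 receptors at 3, 6, 12 and 24 h (x axis) in 3 panels, which set the injured hemisphere against the uninjured one, the injured one against sham cortex and the uninjured one against sham cortex. Filled points have an adjusted p under 0.05. Grm2 is filled at 12 and 24 h between hemispheres, and Grm4 has the lowest points of both comparisons with sham at 12 and 24 h.

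Libraries of the same day of surgery and the same time were also set side by side. Of 12 such pairs, the ipsilateral library was lower in 12 for Grm3, Grm5 and Grm8, in 11 for Grm7, in 10 for Grm2 and in 9 for Grm4. Grm2 had the widest median difference, -0.41 on the log2 CPM scale (range -0.86 to 0.20). Grm3 ranged from -0.91 to -0.0015 with a median of -0.24, and Grm5 from -0.61 to -0.051 with a median of -0.25. The median was -0.20 for Grm7, -0.18 for Grm8 and -0.27 for Grm4, whose range of -0.58 to 0.39 crossed 0 the most. At 12 and 24 h all 6 pairs were lower for every receptor except Grm4, where 5 of 6 were. Pairs were not counted over all genes, so these numbers have no background and do not set the receptors apart from other genes.

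**Figure D3:**
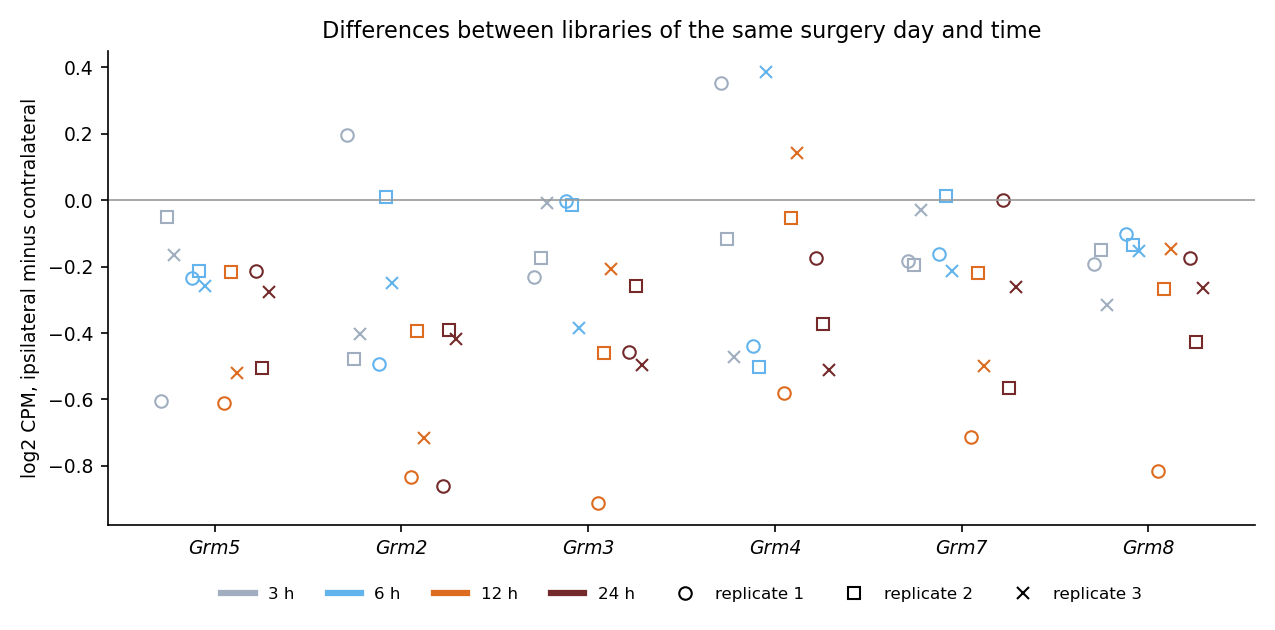
Log2 CPM of the ipsilateral minus the contralateral library of the same day of surgery and time (y axis) for each receptor (x axis). Colours mark the reperfusion time and symbols the replicate number, and the line is at 0. All points of Grm3, Grm5 and Grm8 lie below 0, while Grm4 has 3 of 12 above it.

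Markers of several cell types also differed between hemispheres at 12 and 24 h, when 4.3% and 9.36% of all genes were called lower and 7.94% and 9.74% higher. The 7 neuron markers summed to 2844 to 3178 CPM in ipsilateral against 3660 to 3872 CPM in contralateral cortex at 12 h, and to 2479 to 2815 against 3758 to 4092 CPM at 24 h. Of these, 2 of 7 were called lower at 12 h and 4 of 7 at 24 h. Of 5 markers of cortical excitatory neurons, 2 were called lower at each time. Their sums overlapped at 12 h (310.2 to 352 against 321 to 442 CPM) and were apart at 24 h (268 to 297 against 361 to 391 CPM). The 7 astrocyte markers, which bear on Grm3, summed to 3225 to 3953 against 4072 to 4942 CPM at 12 h, with 1 called lower. At 24 h their sums overlapped (3512 to 4834 against 3521 to 4194 CPM), with 3 called lower and 1 higher. The 4 markers of oligodendrocyte precursors summed to 101 to 119 against 123 to 153 CPM at 12 h, with no overlap, and to 93.6 to 122 against 98.7 to 140.5 CPM at 24 h. None of the 4 was called at either time by edgeR, all 4 had lower fitted levels at both, and 2 of 4 were called lower over the mean of the 4 times. Of 5 microglia markers, 2 were called lower at 12 h and 3 at 24 h, with median log2 differences of -0.53 and -0.62. Of 5 markers of infiltrating myeloid cells, 2 were called higher at 24 h (median 1.84), and 1 of 4 endothelial markers was. Markers of oligodendrocytes, striatal neurons, thalamus, hippocampal granule neurons and choroid plexus had no call at either time. The sums of the 7 neuron markers were already apart earlier. They ran from 3258 to 3623 against 3858 to 3912 CPM at 3 h and from 3078 to 3424 against 3803 to 4089 CPM at 6 h. The single markers did not all go with the sum. Only 3 of the 7 had lower fitted levels at 3 h (median log2 difference 0.04), and 5 of 7 did at 6 h (median -0.25). At 6 h, when 2.14% of all genes were called lower, 2 of 7 neuron markers were. So were 1 of 7 astrocyte, 1 of 4 oligodendrocyte precursor and 1 of 5 microglia markers. At 3 h no marker of these 4 cell types was called. The part of cell composition in the receptor differences was not tested.

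Whether the difference between hemispheres itself changed with time was tested directly. None of the 6 receptors passed the test of any difference among the 4 times, where 1.34% of all genes did, or that of 24 h minus 3 h, where 3.32% did. None of the 6 had an unadjusted p under 0.05 in either test, and DESeq2 called none in them. The change from 3 h to 24 h was -0.32 ± 0.193 for Grm2 (adjusted p = 0.347) and -0.26 ± 0.214 for Grm3 (adjusted p = 0.522), and -0.14 and -0.50 without the 2 libraries that stood apart. The calls at 12 h and not at 3 h are therefore not shown to be a difference between times.

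Against sham cortex, Grm4 had the largest change of the 6 at 12 and 24 h. The 8 comparisons with sham share the same 3 sham libraries. At 12 h 2 of 6 receptors were called lower in ipsilateral cortex, against 3.72% of all genes, and at 24 h 4 of 6 were, against 10.9%. At 3 h and 6 h edgeR called none of the 6, with backgrounds of 0.0166% and 1.09%, and none had an unadjusted p under 0.05. Every ipsilateral library lay below every sham library in 6 of 6 receptors at 12 h (17.3% of all genes) and in 5 of 6 at 24 h (20.9%), Grm7 being the exception.

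Grm4 measured 28.2, 26.4 and 29.7 CPM in sham cortex. The ipsilateral libraries held 15.1, 15.4 and 17.2 CPM at 12 h, 43.4% lower (log2 difference -0.82 ± 0.175, adjusted p = 0.00292). At 24 h they held 16.6, 14.5 and 12.0 CPM, 48.97% lower (log2 difference -0.97 ± 0.176, adjusted p = 0.000302). The 24 h call held in all 17 alternatives run, and the 12 h call was lost, with an adjusted p of 0.0790, without replicate 2 in every group. The contralateral libraries were low as well. They held 22.6, 16.0 and 15.6 CPM at 12 h and 18.8, 18.8 and 17.1 CPM at 24 h, all below all sham libraries. Their log2 differences from sham were -0.64 ± 0.175 (adjusted p = 0.141) and -0.63 ± 0.174 (adjusted p = 0.242), which did not pass edgeR's test over all genes. All 3 contralateral libraries lay below all 3 sham libraries in 8.75% of all genes at 12 h and in 7.43% at 24 h. At 3 and 6 h Grm4 stayed within 20.4 to 35.5 CPM in both hemispheres. Ordered by mean, the 9 groups of Grm4 split between ipsilateral 6 h (25.1 ± 7.32 CPM, SD, n = 3) and contralateral 24 h (18.2 ± 0.975 CPM). That was the only pair of neighbours in the order that did not overlap.

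Markers of other tissue or cell types that a dissection may include were also set against sham. All 7 striatal markers had lower fitted levels than sham in ipsilateral cortex at 12 h (median log2 difference -0.64) and 24 h (-0.61) and in contralateral cortex at 24 h (-0.72). In contralateral cortex at 12 h 6 of 7 did (median -0.36). Their sums ran from 188 to 310 CPM in sham, 128 to 345 in contralateral 12 h, 110.2 to 229 in contralateral 24 h, 138 to 221 in ipsilateral 12 h and 112 to 247 CPM in ipsilateral 24 h. These ranges overlap with sham, and edgeR called 0 of 7 in these 4 comparisons. Oligodendrocyte markers were lower in the fit in 4 or 5 of 5 in the ipsilateral groups and in contralateral 12 h (medians -0.56 and -0.26 at 12 and 24 h ipsilateral, -0.35 contralateral) and in 3 of 5 in contralateral 24 h (median -0.59). Of them 1 was called lower in ipsilateral 12 h, where the 5 summed to 886 to 938 CPM against 1050 to 1327 CPM in sham, and 2 in ipsilateral 24 h. The 5 choroid plexus markers had median log2 differences of 1.00 and 0.73 in contralateral cortex at 12 and 24 h, with none called. The 4 thalamic markers summed to 117 to 138 CPM in sham and to 139.8 to 175 CPM in ipsilateral 12 h, wholly above it. Their sums overlapped sham in contralateral 12 h (102 to 144 CPM), contralateral 24 h (119.8 to 154 CPM) and ipsilateral 24 h (119.97 to 144 CPM), and none of the 4 was called in these comparisons. The 3 hippocampal granule neuron markers summed to 11.3 to 21.4 CPM in ipsilateral 24 h, wholly above the 9.50 to 10.4 CPM of sham. Of them 1 was called higher there (median log2 difference 0.73). Their sums overlapped sham in ipsilateral 12 h, contralateral 12 h and contralateral 24 h, with none called. Of the 7 neuron markers, 2 were called lower than sham in ipsilateral cortex at 12 h and 4 at 24 h, and of the 5 microglia markers 2 and 3. The part of any of these markers in the Grm4 levels was not tested.

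Grm3 and Grm2 were also lower than in sham. Grm3 held 154, 142 and 168 CPM in sham, and its ipsilateral level differed by -0.52 ± 0.151 at 12 h (adjusted p = 0.0263) and -0.55 ± 0.152 at 24 h (adjusted p = 0.00998). The 12 h call was lost without sham replicate 1 (adjusted p = 0.0696), sham replicate 3 (0.105), ipsilateral replicate 1 (0.164), or replicate 1, 2 or 3 in every group (0.0884, 0.134 and 0.126). The 24 h call was lost without ipsilateral replicate 3 (adjusted p = 0.0811) and without replicate 2 or 3 in every group (0.0649 and 0.220). Grm2 held 33.4, 31.3 and 38.8 CPM in sham, and was 27.1% lower at 24 h (log2 difference -0.46 ± 0.137, adjusted p = 0.0176). That call was lost without sham replicate 3 (0.0926), ipsilateral replicate 1 (0.0742), or replicate 2 or 3 in every group (0.0608 and 0.176). At 12 h the Grm2 difference from sham was -0.30 (adjusted p = 0.158).

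Grm5 was at the edge of the threshold. Sham libraries held 337, 368 and 386 CPM, and the 24 h ipsilateral level was 29.2% lower (log2 difference -0.50 ± 0.179, adjusted p = 0.0461). Its adjusted p in edgeR was 0.0521 with RLE in place of TMM normalization, 0.0503 without a filter and 0.0583 with a filter at 1 CPM. It passed in 2 of the 9 settings that left out 1 library or 1 replicate number, with adjusted p-values from 0.00287 to 0.35 over them. Without sham replicate 1, 2 or 3 it was 0.0687, 0.0987 and 0.117. Without ipsilateral replicate 2 or 3 it was 0.0783 and 0.202, and without replicate 2 or 3 in every group 0.196 and 0.35. Grm7 (81.6, 87.3 and 98.6 CPM in sham) differed by -0.54 ± 0.216 at 24 h (adjusted p = 0.0747, and 0.0263 with the replicate block). Its adjusted p was 0.00912 without ipsilateral replicate 1 at 24 h, the library with the most mitochondrial ribosomal RNA, where Grm7 stood at 83.8 CPM beside 62.3 and 37.9 CPM. Grm8 (24.8, 22.8 and 28.3 CPM in sham) differed by -0.36 ± 0.16 at 24 h (adjusted p = 0.104).

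In the contralateral hemisphere, edgeR called none of the 6 receptors against sham at any time. Before adjustment, 2 of 6 had a p under 0.05 at 12 h (Grm2 and Grm4), 1 of 6 at 24 h (Grm4) and none at 3 and 6 h. Of all genes, 7.45% had such a p at 12 h and 6.47% at 24 h. DESeq2 called 1, Grm4 at 12 h. The shares of all genes called in either direction after adjustment were 0.0111%, 0.0332%, 0.238% and 0.111% at 3, 6, 12 and 24 h. Grm2 stood above all 3 sham libraries in all 3 contralateral libraries at 12 h, where 8.39% of all genes did, with a log2 difference of 0.34 ± 0.136 (adjusted p = 0.49). Ranked by mean, Grm2 went from 43.8 ± 3.91 CPM in contralateral 12 h through 34.5 ± 3.87 CPM in sham to 25.1 ± 2.08 CPM in ipsilateral 24 h. The only neighbours in that order without overlap were ipsilateral 6 h (32.5 ± 0.67 CPM) and ipsilateral 12 h (27.9 ± 2.09 CPM). For Grm3, Grm5, Grm7 and Grm8 all neighbours in the order of the 9 means overlapped, and ipsilateral 12 h and 24 h took the lowest places.

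Genes of proteins that work with the receptors moved in both directions. Of 12 scaffold and trans-synaptic partners, 4 rose and 0 fell in ipsilateral against contralateral cortex over the mean of the 4 times. The mean had 17.7% of all genes called higher and 15.3% lower, and the median of the list was 0.05. These counts moved with contralateral replicate 1 at 3 h: without it 3 of the 12 fell, and without both libraries that stood apart 3 rose and 3 fell. The 4 that rose were Grasp, Homer3, Homer1 and Siah1a, and leaving out single libraries or replicate numbers gave 1 to 4 rises. Grasp, the tamalin scaffold of group I and II receptors, rose by 0.55 ± 0.12 (log2, adjusted p = 0.00101). It stood at 33.4 ± 1.64 CPM (SD, n = 3) against 17.1 ± 1.93 CPM at 12 h. Homer3 rose by 0.37 ± 0.12 (adjusted p = 0.0176), but its adjusted p was 0.059 without the 2 libraries that stood apart and 0.0523, 0.0747 and 0.136 without replicate 1, 2 or 3 in every group. The rise of Homer1 over the mean passed in 19 of 35 alternatives. Homer1, whose long forms tie Grm5 to the postsynaptic density and whose short form is induced by activity, rose at 6 h by 0.51 ± 0.158 (adjusted p = 0.0442), at 308 ± 56.6 against 217 ± 18.8 CPM. That 6 h call passed in 9 of 18 alternatives, and the counts do not separate the forms. At 24 h 1 of the 12 fell, where 9.36% of all genes were called lower. It was Ncdn (neurochondrin), by 0.44 on the log2 scale (adjusted p = 0.00558). Single libraries or replicate numbers left out gave 0 to 1 falls at 24 h. Siah1a and Ncdn were named after their values were seen.

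Of 20 G proteins and effectors, 9 fell and 1 rose at 24 h, with a median of -0.34 beside 0.03 over all genes, and 11 fell and 1 rose over the mean of the 4 times. At 12 h 6 fell and 1 rose, and at 3 and 6 h edgeR called none lower. Of all genes, 4.3% were called lower at 12 h, 9.36% at 24 h and 15.3% over the mean. The shares called higher were 5.85% at 6 h, 7.94% at 12 h, 9.74% at 24 h and 17.7% over the mean. Leaving out replicate 2 in every group gave 4 falls at 24 h and 3 over the mean. At 12 h the falls numbered 3 without contralateral replicate 1, 2 without ipsilateral replicate 3 and 1 without contralateral replicate 2 or ipsilateral replicate 1. They numbered 2 without replicate 1 and 1 without replicate 2 or 3 in every group. Without the 2 libraries that stood apart 10 fell at 24 h. Gnai3, an inhibitory alpha subunit found in many cell types, was the gene that rose. It stood at 37.1 ± 2.02 CPM in ipsilateral and 20.5 ± 1.21 CPM in contralateral cortex at 24 h (mean over times 0.64 ± 0.0813, adjusted p = 9.9e-07). Adcy2, an adenylyl cyclase, stood at 138 ± 3.44 against 193 ± 12.3 CPM at 24 h and fell over the mean by 0.31 on the log2 scale (adjusted p = 1.45e-05). Itpr1, the inositol trisphosphate receptor downstream of group I receptors, stood at 795 ± 45.9 against 1131 ± 70.1 CPM at 24 h and fell over the mean by 0.32 (adjusted p = 0.000104).

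Of 10 genes that end receptor signalling, 3 fell and 1 rose at 24 h, when 9.36% of all genes were called lower and 9.74% higher. Over the mean 2 fell and 2 rose (Rgs14 and Arrb1 against Rgs2 and Rgs8), shares near those of all genes (15.3% lower and 17.7% higher). Over the mean 4 fell without contralateral replicate 1 at 3 h, without both libraries that stood apart or without replicate 1 in every group, 0 without replicate 2 and 1 without replicate 3. At 24 h Rgs4, Rgs14 and Adrbk1 fell, and none of the 9 settings that left out 1 library or 1 replicate number kept 3 falls. They gave 1 fall without contralateral replicate 1, ipsilateral replicate 1 or replicate 2 in every group, and 2 falls in the others. Rgs8 and Adrbk1 were named after their values were seen. Rgs2, a GTPase activator that acts on Gq, rose over the mean by 0.70 ± 0.0646 (adjusted p = 4.39e-09), with its highest difference at 6 h (36.7 ± 5.79 against 17.8 ± 0.407 CPM). Rgs14 fell by 0.33 on the log2 scale (adjusted p = 0.000987) and Arrb1, a beta-arrestin, by 0.18 (adjusted p = 0.00331). Without replicate 2 in every group these had adjusted p-values of 0.0515 and 0.105, and Arrb1 had 0.0649 without replicate 3. Rgs4, another GTPase activator, was at 397 ± 49.6 against 279.7 ± 21 CPM at 6 h (adjusted p = 0.054) and at 232 ± 19.7 against 349 ± 91.2 CPM at 24 h (log2 difference -0.59, adjusted p = 0.0115). The Rgs4 difference changed from 3 h to 24 h by -1.14 ± 0.231 (adjusted p = 0.0119). Its 24 h adjusted p was 0.136 without contralateral replicate 1, 0.0543 without ipsilateral replicate 1, 0.116 without replicate 1 and 0.0698 without replicate 2 in every group, and 0.0672 without the 2 libraries that stood apart.

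The peptide N-acetylaspartylglutamate activates Grm3, and 5 genes of its making and breakdown were examined. Nat8l, which makes the precursor N-acetylaspartate in neurons, fell at 6, 12 and 24 h (the 6 h and 12 h calls each passed in 11 of 18 alternatives, the 24 h call in 18) and was the only one of the 5 called over the mean, with a log2 difference of -0.41 ± 0.0582 (adjusted p = 4.89e-06). At 24 h it held 251 ± 30.2 against 391 ± 62.4 CPM. Of all genes, 2.14%, 4.3% and 9.36% were called lower at 6, 12 and 24 h, and 9.74% higher at 24 h. Over the mean 15.3% were called lower and 17.7% higher. Naalad2, a peptidase of the family that degrades the peptide, was scarce and rose at 24 h, from 0.771 ± 0.333 to 1.69 ± 0.184 CPM (log2 difference 1.13 ± 0.316, adjusted p = 0.0125). Its adjusted p was 0.0597 without contralateral replicate 2, 0.07 without contralateral replicate 3, and 0.0990 and 0.206 without replicates 2 and 3 in every group. Rimkla, a synthase of the peptide, gave 0.18 over the mean (adjusted p = 0.161).

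**Figure D4:**
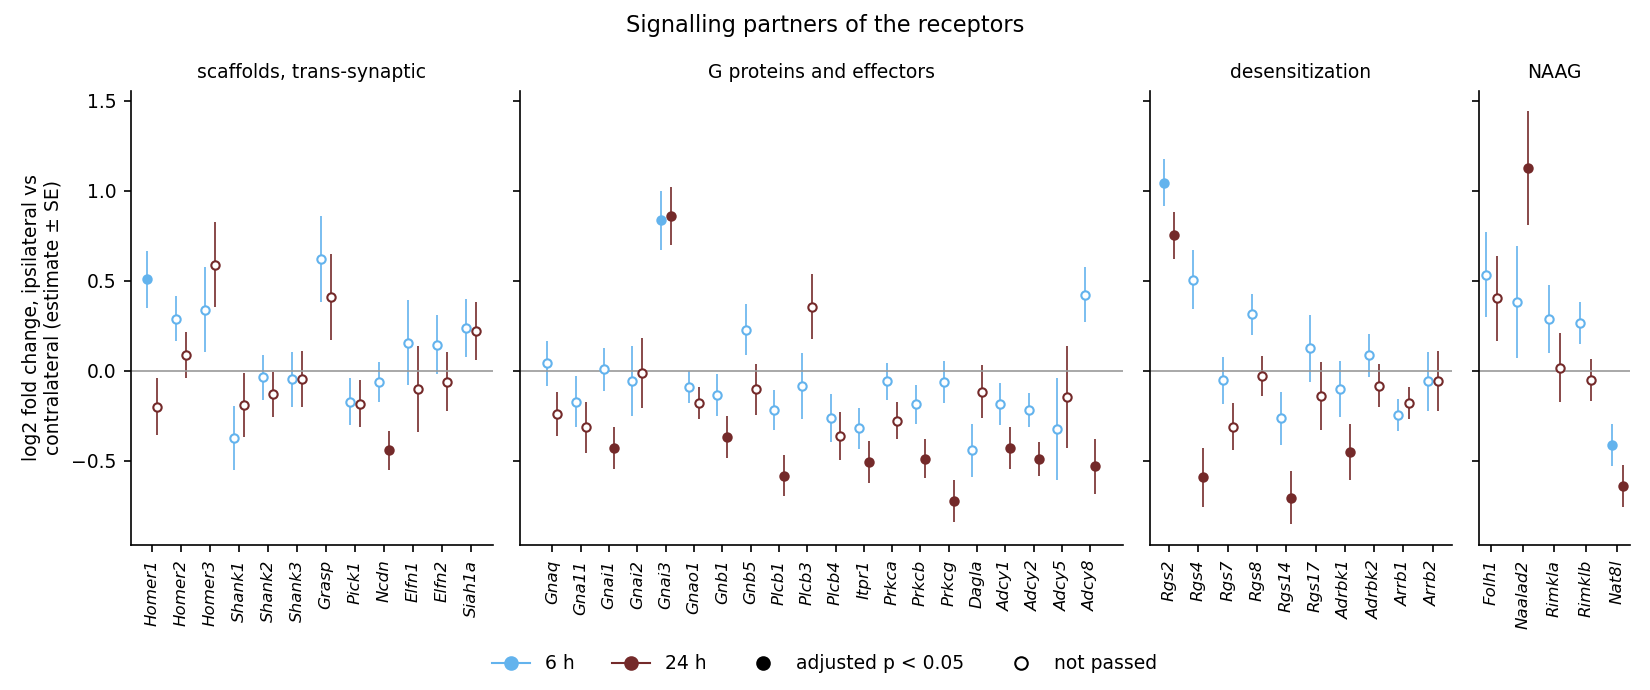
Log2 fold change with its SE (y axis) in ipsilateral against contralateral cortex for the 47 partner genes (x axis) at 6 h and 24 h, in 4 panels by role. Filled points have an adjusted p under 0.05. At 24 h most G protein and effector genes lie below 0, with Gnai3 above it.

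Across all 27 libraries, the receptors varied together to different degrees. Pearson's r of log2 CPM between pairs of them ran from 0.407 (Grm4 and Grm5) to 0.873 (Grm5 and Grm7). These values are a description of libraries that share group, day and depth. Among 14161 genes with a mean of at least 1 CPM, the most alike were Epha4 (r = 0.891), Grin2a (0.881) and Lamp5 (0.879) for Grm2. For Grm3 they were Kcnd2 (0.926), Fat3 (0.915) and Gpr26 (0.912), and for Grm4 Ephb1 (0.923), Asic1 (0.907) and Padi2 (0.906). For Grm5 they were Tenm1 (0.957), Csmd3 (0.956) and Nalcn (0.952), for Grm7 Exd2 (0.936), Vps13c (0.927) and Kit (0.922), and for Grm8 Pcdh10 (0.908), Slc46a1 (0.9) and Snx14 (0.885). The GC content, as the mean over the transcripts of a gene, was 57.8% for Grm2 and 59.5% for Grm4. It was between 46.5% and 47.9% for the other 4.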

How the data were processed

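RNA depleted of ribosomal RNA was sequenced from 27 libraries. The deposited table holds raw counts per gene. Per the submitters' processing notes, the authors used STAR 2.5.0a, featureCounts 1.4.3-p1, mm10 and edgeR (no version). For the annotation and the strand setting, nothing is stated in the labels. Groups came from the labels. The counts were filtered with filterByExpr (minimum 10, total 15), which removed 4253 genes holding 0.0116% of counts, normalized by TMM and fitted with all 27 libraries by edgeR 4.0.16 (R 4.3.3; quasi-likelihood, 1 mean per group, robust, Benjamini-Hochberg over 18087 genes). DESeq2 1.42.0 served as an alternative. The common biological coefficient of variation was 0.175. Log2 CPM for pairs and correlations used a prior count of 2. Members and gene lists were chosen with earlier results of these data known. The 6 members were named throughout. Of each partner list up to 3 genes with the smallest p over the mean of the 4 times, plus Homer1 and Rgs4, were named. Replicate numbers are days of surgery per the series' design text and so pair the samples. The mean correlation of deviations from the group mean was 0.0475 for libraries of the same number in different groups. For different numbers it was -0.0237. That second value is no separate check, since deviations within a group cancel out and it largely follows from the first. The highest Spearman correlation within a group was 0.994, and no 2 libraries were identical. Counts were simulated for ipsilateral against contralateral at 24 h (17888 genes). Changes of 1.5-fold, 2-fold and 4-fold were put into 65, 67 and 66 genes drawn at random. Of these, 33.8%, 61.2% and 87.9% were recovered, with 6 false calls. The data had 1693 genes called lower and 1762 higher at 24 h, far more than were changed here. The shares recovered are therefore not the power for the receptors.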

Additional observations from a re-analysis of the deposited data

Results flagged for a closer look

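The Grm2 libraries at 12 h lay on opposite sides of the sham libraries in the 2 hemispheres. Of all genes at 12 h, 8.39% lay wholly above sham in contralateral cortex and 17.3% wholly below it in ipsilateral cortex. All 3 contralateral libraries of Grm2 (45.8, 39.3 and 46.2 CPM) lay above all 3 sham libraries (33.4, 31.3 and 38.8 CPM). All 3 ipsilateral libraries (25.7, 29.9 and 28.1 CPM) lay below the sham libraries. The direct difference between hemispheres was -0.65 on the log2 scale, with an adjusted p of 0.00212 in edgeR's test. Neither hemisphere passed that test against sham at 12 h (adjusted p = 0.49 and 0.158).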

How the results depend on the processing

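Of 47 single-gene receptor results, 13 were called. All 13 kept their direction under every alternative run, and 5 also kept their call. Of the 34 others, 12 were called under some alternative and 5 changed sign when libraries were left out. The log2 differences then ran from -0.23 to 0.00089 for Grm3 at 3 h, from -0.29 to 0.11 for Grm4 at 3 h, from -0.47 to 0.0077 for Grm4 at 6 h and from -0.34 to 0.053 for Grm4 at 12 h. For Grm2 at 24 h minus 3 h they ran from -0.54 to 0.013. The cause was not tested.

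With the replicate block (day of surgery), the receptors called lower between hemispheres numbered 3 at 12 h, 2 at 24 h and 5 over the mean, and 5 against sham at 24 h. It changed no call beyond those of Grm5 at 12 h, Grm3 at 24 h, and Grm7 over the mean and against sham at 24 h. A pairing of the 2 hemispheres within each day and time was added after seeing the data. It gave 5 at 12 h (all but Grm4) and 3 at 24 h (Grm2, Grm3 and Grm5). Over all genes, in either direction, the pairing called 2418 at 12 h and 3695 at 24 h, and the replicate block 3825 at 24 h. For the block at 12 h, over the mean and against sham, no count over all genes is given. Those numbers of receptors therefore have no background beside them. The fit without block or pairing called 777 lower and 1437 higher at 12 h, and 1693 lower and 1762 higher at 24 h.

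Fitting only the compared groups gave 5 calls at 12 h between hemispheres and 4 at 12 h for ipsilateral against sham. For contralateral against sham it gave 1 (Grm4) at 12 h and at 24 h. Over all genes, in either direction, these fits called 2665, 3034, 238 and 83, in that order. The fit of all 27 libraries called 43 genes at 12 h and 20 at 24 h for contralateral against sham. Without the 2 libraries that stood apart, 3 were called at 24 h between hemispheres and 1 (Grm4) at 12 h for contralateral against sham. DESeq2 also called Grm4 there, 1 receptor. Without the 2 libraries, 3812 of all genes were called between hemispheres at 24 h and 151 for contralateral against sham at 12 h. DESeq2 called 145 genes in the latter comparison. Leaving out single libraries or replicate numbers gave 1 to 2 calls at 12 h and 1 to 2 at 24 h between hemispheres, and 0 to 2 at 12 h and 1 to 4 at 24 h for ipsilateral against sham. With the longest transcript as length, sham levels were 6.11 CPM per kb for Grm4, 45.2 for Grm5, 21.2 for Grm7 and 5.27 for Grm8. Depth limited no receptor, whose lowest count was 520, and 3 libraries per group limit the precision.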
